A study of Mus musculus with 6 samples.

Results

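The 9 genes described here encode the constant regions of mouse immunoglobulins and the joining chain of secreted IgM and IgA. They were taken by gene name from a table of 54532 genes and are the heavy chain genes Ighm, Ighd, Ighg1, Ighg2b, Ighg2c, Ighg3 and Igha, the kappa light chain gene Igkc, and Jchain. RNA was sequenced from bone marrow cells selected with CD8 magnetic beads, to ask how the JAK1 and JAK2 inhibitor ruxolitinib alters CD8 T cells in immune bone marrow failure. The ruxolitinib group (pools 1 to 3) came from female CByB6F1 mice aged 2 to 5 months that had bone marrow failure and received the drug. The control group (pools 4 to 6) came from female mice of the same strain, age range and disease that did not receive it. Each of the 6 libraries combined marrow from 2 to 3 mice, and no library came from a healthy mouse. CByB6F1 is a hybrid of BALB/c and C57BL/6 parents. The sources used here give neither the dose nor the length of treatment, nor how the disease was induced.

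An antibody pairs heavy and light chains, each made of a variable region that binds antigen and a constant region that sets the class. B cells first make IgM and IgD from the same heavy chain locus and can later switch to IgG, IgE or IgA, by a recombination that brings a downstream constant gene next to the variable region. Plasma cells, many of which reside in bone marrow, secrete antibody, and the J chain joins secreted IgM and IgA into multimers. CD8 T cells carry T cell receptors and are not a known source of antibody.

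The 7 heavy chain genes lie on the minus strand of chromosome 12 (mm10), running from Ighm (chr12:113418558-113422730) down to Igha (chr12:113254830-113260236), with Ighd, Ighg3, Ighg1, Ighg2b and Ighg2c between them in that order. Igkc is on chromosome 6 and Jchain on chromosome 5. The last 60 coding bases of the shorter, secreted-form transcripts are shown because they separate the classes that bind the J chain from those that do not. Capitals mark the codon before the last amino acid codon, the sequence runs 5′ to 3′ on the minus strand, and it is taken from GENCODE M21 (GRCm38, the assembly of mm10).
Ighm: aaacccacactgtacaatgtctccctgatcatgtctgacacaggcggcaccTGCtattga
Igha: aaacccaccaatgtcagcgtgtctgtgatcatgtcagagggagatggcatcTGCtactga
Ighg2b: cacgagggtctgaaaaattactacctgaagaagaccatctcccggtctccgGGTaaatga
Ighd: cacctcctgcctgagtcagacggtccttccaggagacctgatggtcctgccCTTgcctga
Ighm and Igha hold TGC at that place, the codon of the tailpiece cysteine through which IgM and IgA are joined to the J chain. The 4 IgG genes hold GGT there and Ighd holds CTT. Over the whole coding sequence the IgG genes were 74.0% to 85.6% identical to each other, and pairs that include Ighm, Ighd or Igha were 37.8% to 49.7% identical.

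The IgG genes differ more in the hinge, the flexible stretch whose cysteines link the paired heavy chains, than over the whole coding sequence. Their hinge exons, 38.8% to 77.3% identical in pairs, are shown because reads of these related genes can be told apart there. Capitals mark the in-frame cysteine codons.
Ighg1 hinge (chr12:113329844-113329882): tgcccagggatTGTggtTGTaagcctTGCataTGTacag
Ighg2b hinge (chr12:113307261-113307326): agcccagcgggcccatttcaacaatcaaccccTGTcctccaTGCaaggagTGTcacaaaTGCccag
Ighg2c hinge (chr12:113288263-113288325): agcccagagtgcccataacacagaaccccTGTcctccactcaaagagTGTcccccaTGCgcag
Ighg3 hinge (chr12:113360529-113360576): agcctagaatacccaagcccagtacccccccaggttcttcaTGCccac
The Ighg2b and Ighg2c hinges were the closest pair, at 77.3% identity, and these genes share an unbroken run of 78 coding bases. The sources used here do not state how reads matching several genes were counted, so the split between Ighg2b and Ighg2c is uncertain. The BALB/c parent carries Ighg2a in place of Ighg2c, and Ighg2a was not analysed here.

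The bead-selected cells differed between the groups in markers of T cells and of other blood cells. The summary level of 17 CD8 T cell identity genes (geometric mean) was 93.2, 109 and 246 CPM (reads scaled to a common library size) in ruxolitinib pools 1 to 3, against 513, 515 and 392 CPM in control pools 4 to 6. Haemoglobin genes held 13.4% to 22.6% of all counts in ruxolitinib pools and 0.179% to 0.258% in control pools. All 10 macrophage markers were called higher in ruxolitinib pools by the test described below, beside 29.9% of all genes kept. Their median log2 fold change was 3.16, with summed levels of 8769 to 14360 CPM against 1136 to 1555 CPM in control pools. The part of these differences in the results below was not tested. Libraries held 13829808 to 14139605 counts in the ruxolitinib group and 15740514 to 17708196 in the control group. In bulk RNA, more cells of a type and more RNA per cell cannot be told apart. In the following, CPM are counts divided by the library total and edgeR's TMM factor, errors of levels are SDs (n = 3 pools in each group), and log2 fold changes set ruxolitinib over control and carry their SE. Their p-values come from edgeR's quasi-likelihood test, adjusted by Benjamini-Hochberg over the 13480 genes kept by its filter on low counts.

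Relative to the library total, messages of all 9 genes were higher in the ruxolitinib pools. Divided by the level of B cell surface genes, Ighm and Igkc were lower in every ruxolitinib pool, and Ighd, Jchain and Ighg2c overlapped. By that ratio Ighg1, Ighg2b, Ighg3 and Igha were higher in every ruxolitinib pool, although Ighg1 rested on 2 reads in ruxolitinib pool 3. By CPM, each ruxolitinib pool lay above every control pool for all 9 genes, an ordering that 27.3% of all genes with a count also showed. Of the 9 genes, 7 passed the filter and all 7 were called higher, beside 29.9% of all genes kept. Of these 7, Ighd, Ighg2b and Ighg3 passed only through the ruxolitinib pools, the group where they are high, so their calls are no separate support. The other 4, Ighm, Igkc, Igha and Jchain, passed the filter in either group alone. Together the 9 genes took 0.130%, 0.175% and 0.112% of all counts in ruxolitinib pools 1 to 3, against 0.0259%, 0.0195% and 0.0258% in control pools 4 to 6. The share was 0.139% ± 0.0323 in ruxolitinib pools and 0.0237% ± 0.00369 in control pools (exact two-sided permutation p = 0.1, and 3 against 3 pools allow no smaller).

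**Figure D1:**
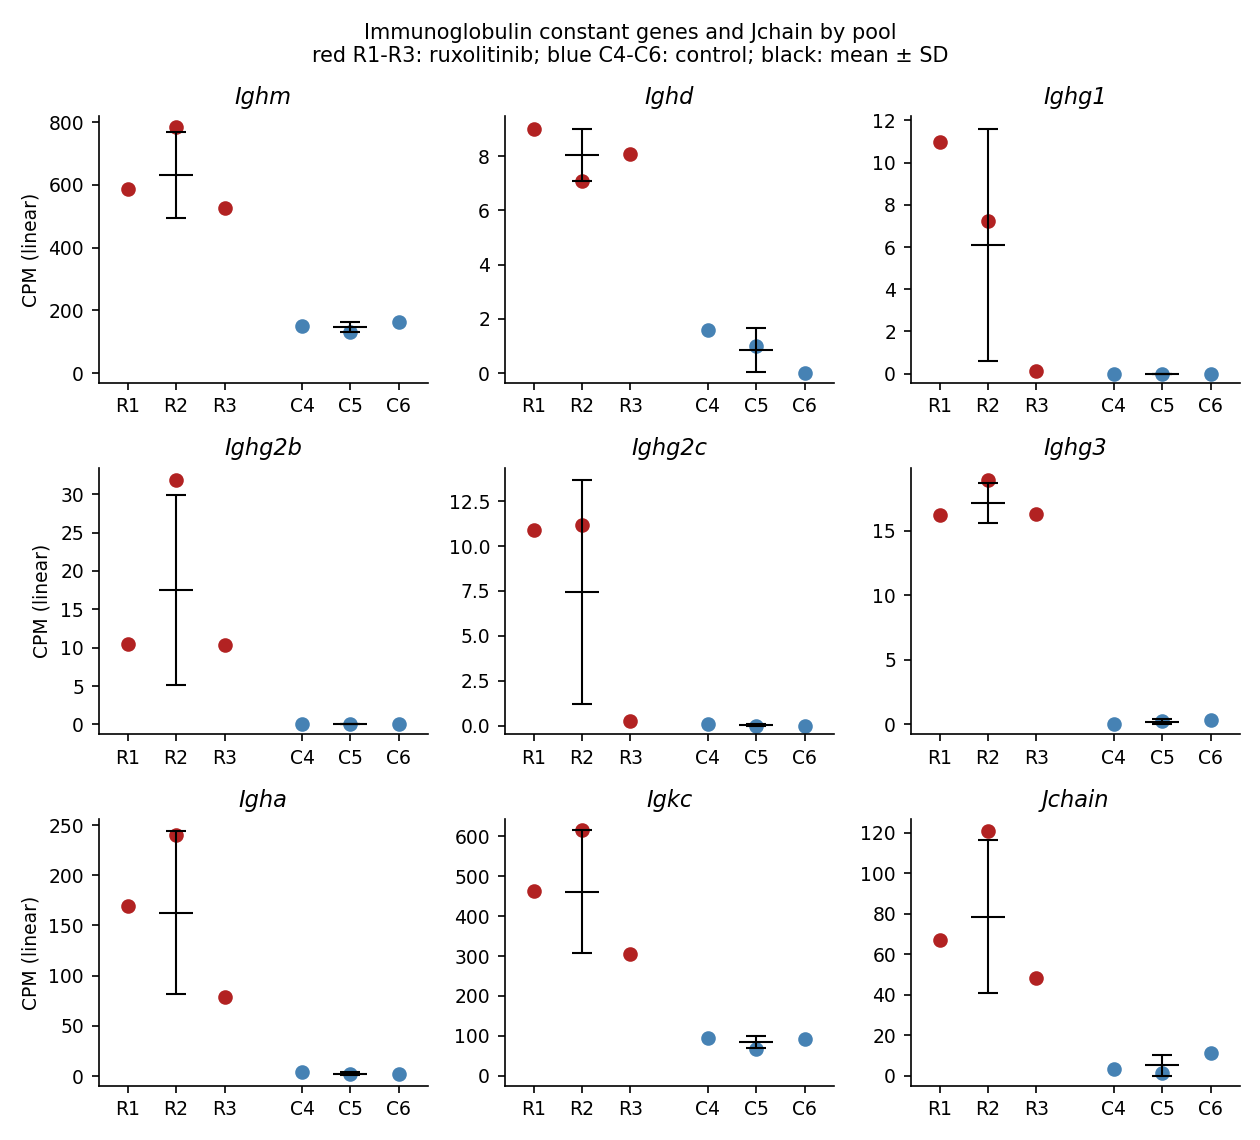
CPM of each gene (y axis, linear, own scale per panel) in the 3 ruxolitinib pools (red, left) and the 3 control pools (blue, right), with the mean ± SD of each group in black. The ruxolitinib points lie above the control points in all 9 panels, and Ighg1 and Ighg2c are near 0 in ruxolitinib pool 3.

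Ighm, the constant gene of IgM, was the heavy chain gene with the highest count in every pool. It had 586, 786 and 526 CPM in ruxolitinib pools 1 to 3 and 150, 129 and 163 CPM in control pools 4 to 6. The lowest ruxolitinib pool stood well above the highest control pool, and the log2 fold change was 2.10 ± 0.25 (edgeR adjusted p = 0.000141). The control level of Ighm, 147 ± 16.8 CPM, rested on 7287 reads.

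Ighd, the constant gene of IgD that naive B cells splice from the same transcript as Ighm, was far rarer. Its level was 9.0, 7.07 and 8.09 CPM in ruxolitinib pools 1 to 3, against 1.61, 0.981 and 0 CPM in control pools 4 to 6. The ruxolitinib pools were close together, while the control pools ran from no read to 29 reads. The log2 fold change was 3.20 ± 0.76 (edgeR adjusted p = 0.00586), and it was 4.05 without control pool 4 and 2.61 without control pool 6. Ighd passed the filter only through the ruxolitinib pools, so its p-value is no separate support.

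Igkc, the only constant gene of kappa light chains, had 464, 615 and 306 CPM in ruxolitinib pools 1 to 3 and 95.4, 67.2 and 91.6 CPM in control pools 4 to 6. The groups did not overlap, and the log2 fold change was 2.44 ± 0.30 (edgeR adjusted p = 0.000188). Per length, Igkc had the highest level of the 9 genes, with 867 ± 290.1 CPM per kilobase in ruxolitinib pools and 159 ± 28.8 in control pools. Ighm followed, with 335 ± 72.3 CPM per kilobase in ruxolitinib pools and 78.0 ± 8.89 in control pools, and did not overlap Igkc in either group. Next in the ruxolitinib pools came Igha with 61.0 ± 30.4 CPM per kilobase and Jchain with 31.2 ± 15.0, whose pools overlapped each other. The 4 IgG genes and Ighd had mean levels of 2.36 to 6.83 CPM per kilobase in ruxolitinib pools and 0 to 0.454 in control pools, and their ruxolitinib pools overlapped in part. The lengths are those deposited, and a different transcript form would change these values.

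Igha, the constant gene of IgA and the class most made by gut plasma cells, was scarce in the control pools. It had 169, 241 and 79.0 CPM in ruxolitinib pools 1 to 3, against 3.66, 1.57 and 2.24 CPM in control pools 4 to 6. Ruxolitinib pool 2 was the highest and pool 3 the lowest of its group, yet pool 3 was still far above the control pools. The log2 fold change was 6.02 ± 0.50 (edgeR adjusted p = 2.57e-05).

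The 4 IgG genes were close to absent from the control pools, with 12 reads in all, against 2002 in the ruxolitinib pools. Ighg3, the constant gene of an IgG subclass typical of responses to polysaccharides, had 16.2, 18.9 and 16.3 CPM in ruxolitinib pools 1 to 3 and 0, 0.262 and 0.374 CPM in control pools 4 to 6. It was the steadiest IgG gene among the ruxolitinib pools, and its log2 fold change was 6.33 ± 0.58 (edgeR adjusted p = 3.98e-05, 5.72 without control pool 4 and 7.04 without control pool 6). Ighg2b had 10.5, 31.9 and 10.4 CPM in the ruxolitinib pools and no read in any control pool. In counts summed over pools, against a floor of 3 counts over the control group, it was at least 280.3-fold higher (edgeR adjusted p = 0.000148). Ruxolitinib pool 2 held 419 of its 726 reads, and without that pool the bound was 171-fold. Both Ighg3 and Ighg2b passed the filter only through the ruxolitinib pools, so their p-values are no separate support.

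Ighg1 and Ighg2c split the ruxolitinib pools. Ighg1, the subclass typical of responses with T helper type 2 cytokines, had 11.0, 7.22 and 0.126 CPM in ruxolitinib pools 1 to 3 and no read in the control pools. The value in ruxolitinib pool 3 was 2 reads, against 150 and 95 in pools 1 and 2. Ighg2c, a subclass typical of responses with interferon gamma, had 10.9, 11.2 and 0.253 CPM in the ruxolitinib pools and 0.111, 0 and 0 CPM in the control pools, where it rested on 2 reads. Neither passed the filter, since ruxolitinib pool 3 was under 0.669 CPM.

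In counts summed over the group, Ighg1 was at least 95.4-fold higher in ruxolitinib pools against the floor of 3 counts. That bound was 55.1-fold without ruxolitinib pool 1 and 150.4-fold without pool 3. Ighg2c was higher by a ratio of 174 in the pooled counts (95% counting interval 47.7 to 1441). These summed values leave out the spread between pools, and ruxolitinib pool 3 held 2 reads of Ighg1 and 4 of Ighg2c. With no filter on low counts, the edgeR adjusted p was 0.181 for Ighg1 and 0.0533 for Ighg2c, and neither passed, beside 20% of all 23032 genes with a count called higher in that fit. Without ruxolitinib pool 3, the adjusted p was 0.00026 for Ighg1 and 1.00e-04 for Ighg2c. Both genes were also called when any of the 3 control pools was left out. The filter then asks for fewer libraries and so lets both be tested, and why they were then called was not tested. In each of these fits both could pass only through ruxolitinib pools, the group where they are high. These calls and p-values are therefore no separate support. The difference in these genes therefore rests on ruxolitinib pools 1 and 2.

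Pool 3 also had a different mix of IgG subclasses. Ighg3 made up 60.3% of its IgG reads (Wilson 95% interval 55.6% to 64.8%), against 33.4% (29.9% to 37.1%) in ruxolitinib pool 1 and 27.4% (24.6% to 30.4%) in pool 2. Ighg2b made up 21.5%, 46.0% and 38.3% in ruxolitinib pools 1 to 3. Ighg1 made up 22.6%, 10.4% and 0.467% and Ighg2c 22.4%, 16.2% and 0.935%, so both were rare in pool 3 alone. Pool 3 was also the ruxolitinib pool with the highest CD8 identity level, 246 CPM, and the part of that in the mix was not tested. Intervals cover counting error only, and the control pools held too few IgG reads, 2 to 6 each, to give a mix.

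The make-up of the heavy chain reads differed between the groups as well as their amount. Ighm made up 72.1%, 71.3% and 82.2% of the reads of the 7 heavy chain genes in ruxolitinib pools 1 to 3, against 96.5%, 97.9% and 98.4% in control pools 4 to 6. The switched classes, IgG and IgA, made up 26.8%, 28.1% and 16.6% in ruxolitinib pools and 2.43%, 1.39% and 1.58% in control pools. The switched share was 23.8% ± 6.31 in ruxolitinib pools and 1.80% ± 0.554 in control pools (exact two-sided permutation p = 0.1, the smallest possible).

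Igha held most of the switched reads in both groups. It took 20.8%, 21.8% and 12.3% of heavy chain reads in ruxolitinib pools 1 to 3, against 2.36%, 1.19% and 1.36% in control pools 4 to 6. The IgG genes together took 5.98%, 6.27% and 4.23% in ruxolitinib pools, against 0.0715%, 0.198% and 0.226% in control pools. The Ighd shares overlapped between the groups, at 1.11%, 0.641% and 1.26% in ruxolitinib pools and 1.04%, 0.743% and 0% in control pools, where 0 of 2651 reads allows a share of up to 0.113%. Per deposited length, the Ighm share was 80.2% in ruxolitinib pools and 98.1% in control pools. Per length of the secreted-form transcripts it was 68.8% in ruxolitinib pools and 96.5% in control pools.

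**Figure D2:**
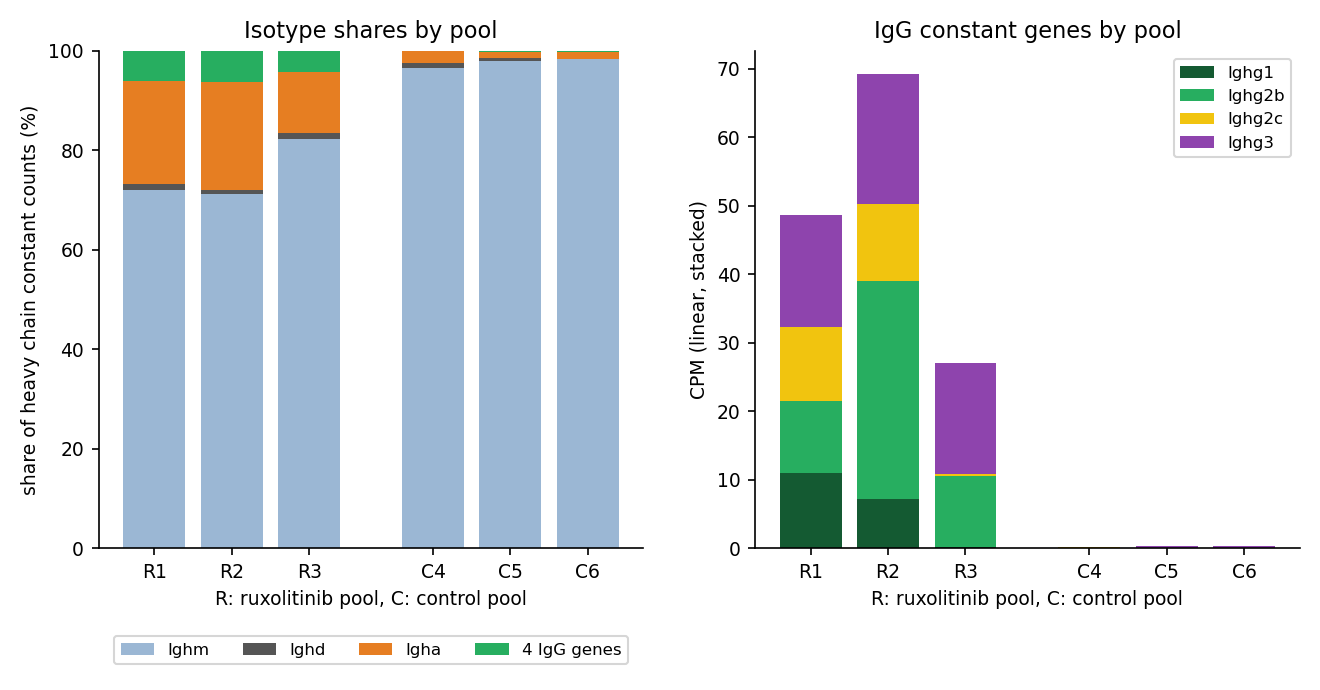
Left, share of heavy chain constant reads (y axis, percent) held by Ighm, Ighd, Igha and the 4 IgG genes in each ruxolitinib pool (R1 to R3) and control pool (C4 to C6); right, stacked CPM of the 4 IgG genes in the same pools. Switched classes take 16.6% to 28.1% in ruxolitinib pools and 1.39% to 2.43% in control pools, and ruxolitinib pool 3 lacks most of the Ighg1 and Ighg2c segments.

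Jchain, whose product joins IgM and IgA and is made by plasma cells and their precursors, had 66.9, 121 and 48.1 CPM in ruxolitinib pools 1 to 3. In control pools 4 to 6 it had 3.21, 1.11 and 11.1 CPM. Control pool 6 was the highest control, with 178 of the 253 control reads, and was still below every ruxolitinib pool. The log2 fold change was 3.93 ± 0.70 (edgeR adjusted p = 0.00123), 5.14 without control pool 6. Set against Igkc, the log2 ratio of Jchain was -2.79, -2.35 and -2.67 in ruxolitinib pools and -4.85, -5.80 and -3.03 in control pools. The groups did not overlap, but control pool 6 came close, and the difference of 1.96 had an exact two-sided permutation p of 0.1, the smallest possible. It was 1.34 without control pool 5 and 2.72 without control pool 6.

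The lambda light chain constant genes, which take the place of Igkc in a minority of mouse B cells, were higher too. Iglc1 had 14.2 ± 3.44 CPM in ruxolitinib pools and 0.496 ± 0.470 CPM in control pools (log2 fold change 4.80 ± 0.68, edgeR adjusted p = 0.000367). Iglc2 differed by 7.39 ± 0.58 and Iglc3 by 4.91 ± 0.82 on the log2 scale, both called, and reads of these related genes may be shared. All 3 passed the filter only through the ruxolitinib pools. Lambda reads made up 6.19%, 7.34% and 10.6% of light chain constant reads in ruxolitinib pools 1 to 3, against 0.634%, 0.0973% and 1.80% in control pools 4 to 6. Iglc4 had 2 reads, both in ruxolitinib pool 2. Ighe, the constant gene of IgE, had no read in any pool, which at these depths does not show that it was absent.

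Constant reads in the control pools came with few variable segment reads. A finished antibody message carries a joined variable segment, so variable reads were set against constant reads, a comparison chosen after the data were seen. For heavy chains the ratio was 0.0935, 0.0932 and 0.0945 variable reads per constant read in ruxolitinib pools 1 to 3, against 0.00500, 0.00693 and 0.00943 in control pools 4 to 6. For kappa chains it was 0.419, 0.420 and 0.422 in ruxolitinib pools, against 0.0482, 0.00584 and 0.0238 in control pools. The ruxolitinib pools were nearly equal to each other, and every control pool was lower.

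The heavy chain values for control pools rest on 14, 14 and 25 variable reads beside 2799, 2019 and 2651 constant reads. The kappa values rest on 83, 6 and 35 variable reads beside 1723, 1027 and 1471 constant reads. On the log2 scale, ruxolitinib minus control was 3.68 for heavy and 4.39 for kappa chains, each with an exact two-sided permutation p of 0.1, the smallest possible. The kappa difference was 5.03 without control pool 4 and 3.61 without control pool 5. The constant genes can also be transcribed without a joined variable segment, and whether such transcripts were present was not tested.

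**Figure D3:**
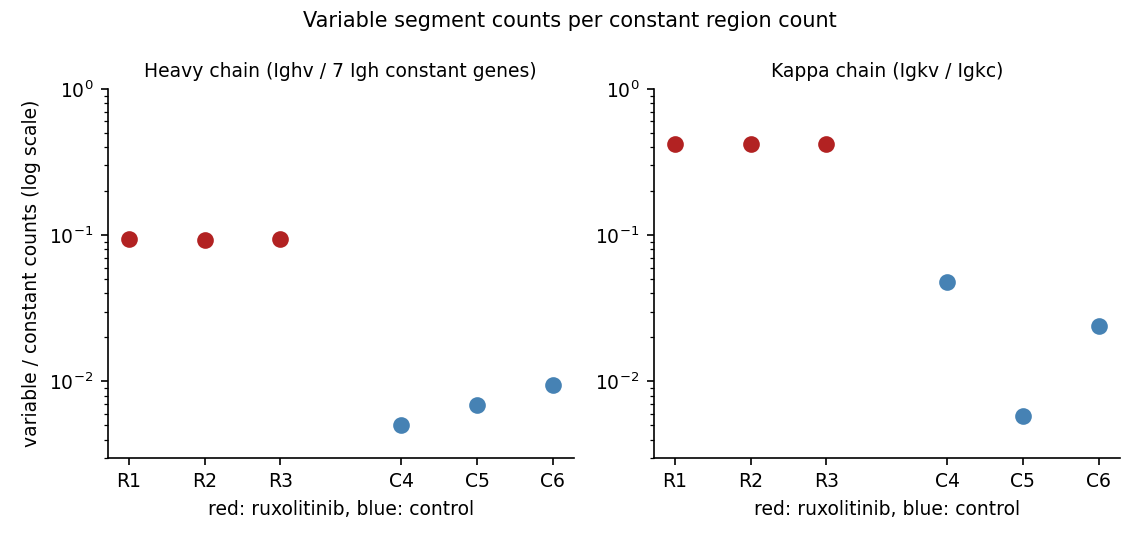
Variable segment reads per constant region read (y axis, log scale) for heavy chains (left) and kappa chains (right), in ruxolitinib pools R1 to R3 (red) and control pools C4 to C6 (blue). Ruxolitinib pools lie at 0.0932 to 0.0945 and 0.419 to 0.422, and control pools at 0.00500 to 0.00943 and 0.00584 to 0.0482.

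Genes of the B cell surface were higher along with the constant genes. Of 15 B cell surface genes, 14 passed the filter and all 14 were called higher, beside 29.9% of all genes kept. Their median log2 fold change was 3.54, against 0.03 over all genes kept. Of these 14, 7 passed only through the ruxolitinib pools, so their calls are no separate support. Cd79b, a signalling chain of the B cell receptor, had 68.7 ± 4.64 CPM in ruxolitinib pools and 6.19 ± 1.11 CPM in control pools. Its log2 fold change was 3.47 ± 0.23, that of its partner Cd79a was 7.58 ± 0.53, and that of Blnk, the adaptor below the receptor, was 3.59 ± 0.28. The surface markers Ms4a1, which encodes CD20, and Fcer2a, which encodes CD23, had no read in any control pool. The same pools held 7287 Ighm and 4221 Igkc reads. Of the 15 list genes, 3 had no control read, while others did, such as Cd79b with 304 and Blnk with 237 reads over the control pools.

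The summed level of the 9 genes relative to the B cell surface list was 6.51 ± 0.476 in ruxolitinib pools and 8.30 ± 0.211 in control pools on the log2 scale. The difference was -1.79 with a pseudocount of 0.1 CPM and -0.85 with 0.5 CPM, and the groups overlapped under neither (exact two-sided permutation p = 0.1 for both, the smallest possible). When libraries were scaled to this list, the log2 fold change was -2.77 for Ighm, -2.42 for Igkc, -1.61 for Ighd and -0.96 for Jchain, of which the first 3 were called lower by edgeR and Jchain was not (adjusted p = 0.184). Under that scaling the median of all genes kept was -4.84, so each of the 4 lay above it. The scaling added 0.5 counts to each value of the list, and 3 of the 15 list genes had no read in any control pool. How far the fold changes and their signs depend on that addition was not tested. Divided by the geometric mean CPM of the list, Ighm was at 35.8, 56.2 and 36.8 in ruxolitinib pools 1 to 3, against 178, 179 and 224 in control pools 4 to 6, and Igkc did not overlap either. For Ighd the same ratio was 0.550, 0.506 and 0.567 in ruxolitinib pools, against 1.92, 1.36 and 0 in control pools, so control pool 6 lay below every ruxolitinib pool and the call for Ighd (adjusted p = 0.0438) goes with overlapping groups. By this ratio Igha was higher in ruxolitinib pools, at 10.3, 17.2 and 5.53, against 4.36, 2.18 and 3.10 in control pools. Jchain overlapped, at 4.09, 8.64 and 3.37 in ruxolitinib pools, against 3.83, 1.54 and 15.3 in control pools.

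Of 10 B cell transcription factor genes, all passed the filter, 8 were called higher and 2 were not called, beside 29.9% of all genes kept called higher. Of the 8, 5 passed the filter only through the ruxolitinib pools (Pax5, Ebf1, Spib, Pou2af1 and Bcl11a), so their calls are no separate support. Irf8, also made by myeloid cells, had a log2 fold change of 0.64 ± 0.24. Tcf3 (0.26 ± 0.21) and Foxo1 (0.32 ± 0.24), which other blood cells also use, were the pair not called. Pax5, which commits cells to the B lineage, and Spib had no read in any control pool, against 10.7 ± 2.30 and 41.9 ± 6.51 CPM in ruxolitinib pools. The count of 8 fell to 5 without ruxolitinib pool 1, ruxolitinib pool 2 or control pool 5.

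Genes of B cell precursors were rare. Of 7, 3 passed the filter, all through the ruxolitinib pools alone. Vpreb3, a surrogate light chain family gene, had 8.45 ± 0.305 CPM in ruxolitinib pools and 0.119 ± 0.0506 CPM in control pools and was called higher (6.04 ± 0.45). Rag1, part of the recombinase that joins variable segments, was called higher with 65 reads in ruxolitinib pools and none in control pools. Vpreb1 was not called (0.67 ± 0.59).

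Of 10 plasma cell genes, 9 passed the filter, 3 were called higher, 3 lower and 3 neither, with a median log2 fold change of -0.27. These shares are near those of all genes kept, 29.9% higher and 25.3% lower, and so are no result about plasma cell genes. Mzb1 passed the filter only through the ruxolitinib pools and Fkbp11 only through the control pools, so neither call is separate support. Scaled to the CD8 identity genes, which moved the median of all genes to 1.93 and called 9353 genes higher and 83 lower, 6 plasma cell genes were called higher and 0 lower. Sdc1, the plasma cell surface marker CD138, had 4.27 ± 1.03 CPM in ruxolitinib pools and 1.73 ± 0.712 CPM in control pools (1.30 ± 0.42, edgeR adjusted p = 0.0248). Mzb1, a chaperone that aids antibody assembly, had 6.03 ± 1.56 CPM in ruxolitinib pools and 0.898 ± 0.681 CPM in control pools (2.74 ± 0.53). Ell2, an elongation factor that favours the secreted heavy chain form, was the third called higher (2.89 ± 0.34).

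The factors Xbp1 (-0.50 ± 0.19) and Irf4 (-0.72 ± 0.26) and the endoplasmic reticulum protein gene Fkbp11 (-3.01 ± 0.54) were called lower. Activated T cells also use Xbp1, Irf4 and Prdm1, and Prdm1 was not called (-0.12 ± 0.32), nor was Txndc5 (-0.37 ± 0.21). Tnfrsf17, the plasma cell receptor BCMA, had 2 reads in all ruxolitinib pools and none in control pools. The count of 3 lower became 1 without ruxolitinib pool 1, control pool 4 or control pool 5, and Xbp1 was also not called with RLE factors (edgeR adjusted p = 0.0564). The count of 3 higher became 2, with Sdc1 lost, without ruxolitinib pool 2 or 3 or control pool 4 or 5. The summed level of the 9 genes relative to this list was 7.75 ± 0.371 in ruxolitinib pools and 5.54 ± 0.193 in control pools on the log2 scale, a difference of 2.21 with no overlap (exact two-sided permutation p = 0.1, the smallest possible).

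Genes of the switching machinery were mostly not called. Of 16, all passed the filter, 1 was called higher, 5 lower and 10 neither, beside 29.9% of all genes kept called higher and 25.3% lower. The share called lower is near that of all genes kept and so is no result about switching genes. Scaled to the CD8 identity genes, which called 9353 of all 13480 genes kept higher and 83 lower, 9 were called higher and 0 lower. The repair genes Mad2l2 (-1.36 ± 0.21), Ung, Shld1 and Xrcc4 were among those called lower, and all cells use several of them. Msh6 was not called (0.18 ± 0.33). Trp53bp1, a damage response gene, was the gene called higher (0.84 ± 0.25), and it was not called without ruxolitinib pool 2.

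Of 11 genes of Fc receptors and antibody transport, 8 passed the filter, 6 were called higher, 1 lower and 1 neither, beside 29.9% of all genes kept called higher and 25.3% lower. None was called lower when scaled to the CD8 identity genes, a scaling that called only 83 of all 13480 genes kept lower. Fcgrt, the neonatal Fc receptor that recycles IgG, had a log2 fold change of 1.92 ± 0.31, Fcer1g, the shared Fc receptor chain, 2.11 ± 0.24, and Fcgr3, a low-affinity IgG receptor, 2.20 ± 0.31. Macrophages also make these 3. Fcmr, the IgM receptor of B cells, had 17.1 ± 2.40 CPM in ruxolitinib pools and 0.0654 ± 0.113 CPM in control pools, and passed the filter only through the ruxolitinib pools. Trim21, a cytosolic antibody receptor, was called lower (-0.85 ± 0.23), a call lost without ruxolitinib pool 1 or control pool 5, and Fcgr4 was not called (-0.14 ± 0.23).

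**Figure D4:**
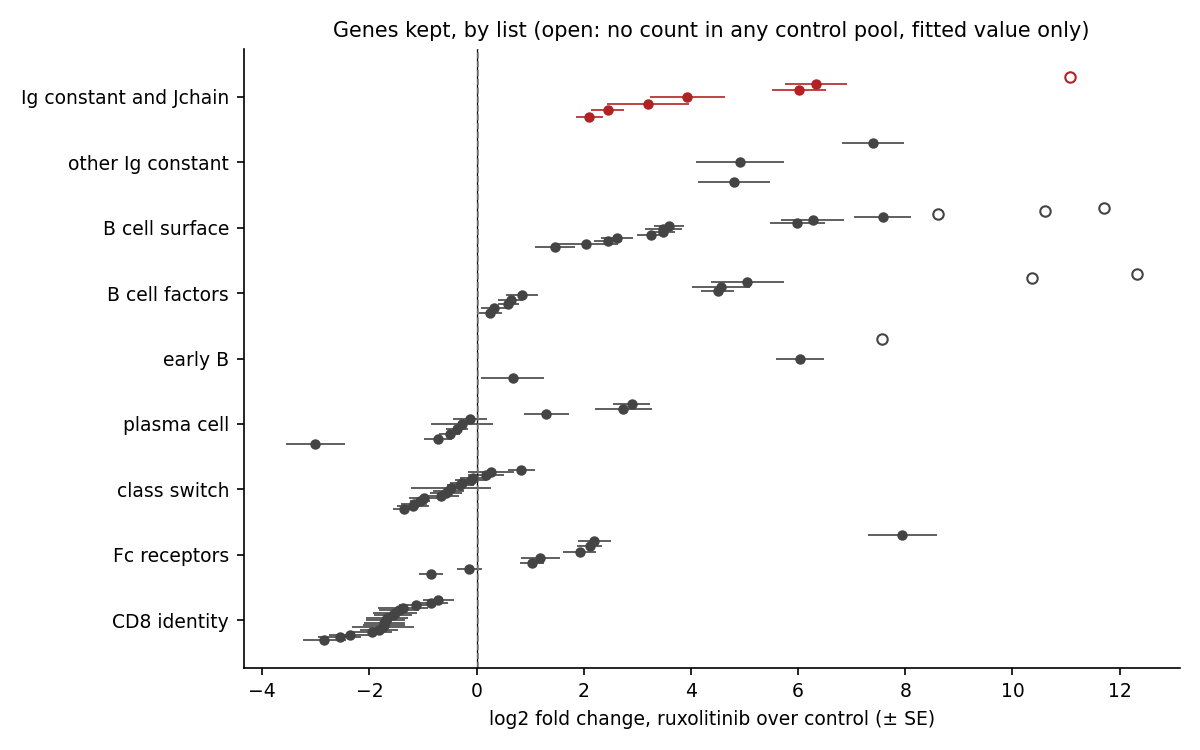
Log2 fold change of ruxolitinib over control (x axis, ± SE) for the genes kept in each list (rows), with the constant genes and Jchain at the top in red. Open circles have no read in any control pool, so their fitted value is no measured size; the dashed line is the median of all genes kept, 0.03. The red points lie at 2.10 or above with TMM scaling, while plasma cell and switching genes lie on both sides of 0.

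Markers of other cells that CD8 beads can hold were set beside these. Cd8a itself had 286 ± 173 CPM in ruxolitinib pools and 944 ± 118 CPM in control pools (-1.72 ± 0.39). Of the 17 CD8 identity genes, 16 were called lower, beside 25.3% of all genes kept. Trbc2 (-2.55 ± 0.40) and Thy1 (-1.96 ± 0.39) were among the 16. Of 8 genes of plasmacytoid dendritic cells, which can carry CD8 alpha and which also make Spib, 7 passed the filter and 5 were called higher. Over all genes kept, 29.9% were called higher. Of those 5, 4 passed only through the ruxolitinib pools, so their calls are no separate support. The summed level of the 8 genes was 72.1 to 109 CPM in ruxolitinib pools and 82.1 to 96.6 CPM in control pools. Tcf4 was among those called higher (1.46 ± 0.35), Runx2 and Pacsin1 were not called, and Siglech had 4.05 ± 0.588 CPM in ruxolitinib pools and no read in control pools. The part of these cells in the immunoglobulin values was not tested.

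Genes most like the mean profile of the 9 genes over the 6 pools were Snx8, Nfe2l1, Slc25a51, Xpo7 and Ap2a2, with Pearson r of 0.9985 to 0.9992 on log2(CPM + 0.1). The 6 points fall into the 2 groups, so r here describes a shared difference between groups, and 243 of 8542 candidate genes had r over 0.99. Closest to Igha were Fcer1g, Fnip2 and Lmo2, and 286 candidates had r over 0.99 with Igha. Closest to Jchain were Tmem176a, Cd63 and Ikbkg, and 9 candidates had r over 0.99 with Jchain.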

How the data were processed

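The authors deposited raw read counts per gene for 6 libraries, with a gene length in bases that is their own value. Reads were aligned with HISAT2 2.0.5 to mm10, per the submitters' processing notes. The NEBNext Ultra II kit was used, per the labels. The sources used here name no counting program, strand setting or annotation, so overlapping genes could share reads.

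Groups came from the sample labels. The quasi-likelihood test of edgeR 4.0.16 (R 4.3.3) was run on the counts with group alone in the model, after filterByExpr and TMM and with robust fitting, with adjusted p under 0.05 as threshold over the 13480 genes kept. The SE is the log2 fold change divided by the square root of F. Of all genes, 29.9% were called higher and 25.3% lower. Shares were compared with exact permutation tests in Python 3.11.15. Intervals of shares are 95% Wilson intervals, and the counting interval of Ighg2c is an exact 95% binomial interval. The limit given for a share with 0 reads is a floor of 3 counts. The scripts were tested on simulated data.

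The members and gene lists were chosen with earlier results of these data known. Named genes are the 9 members, the other constant genes, from each other list the 3 most abundant genes kept plus those that go against their list, Cd8a, and the genes most correlated with the members. Others in counts of 5 or fewer, the B cell genes at 0 in controls, Fcmr and Siglech were chosen after their values were seen. Alternatives included DESeq2 1.42.0 and limma 3.58.1, other factors, filters and scalings, and leaving out each pool. Ratios by pool to the B cell surface list, bounds without a pool, variable to constant ratios and secreted-form lengths were added after the data were seen. That pools are separate samples comes from the labels, so p-values measure the spread between pools. Values of a few listed genes are not reported here.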

Additional observations from a re-analysis of the deposited data

How the results depend on the processing

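Of 409 alternative values for 29 results, 374 were classed as kept, 31 moved or weakened and 4 reversed. A fold change was kept if its direction and call held, and a share or ratio if its direction held. A count of genes was kept if it stayed within a set ratio of the main count, so single calls could be lost in a kept count. The reversals, scaled to the B cell surface genes, were Ighm (-2.77), Ighd (-1.61), Igkc (-2.42) and Jchain (-0.96). How far the reversals depend on the small count added to each value before scaling was not tested. Under the same scaling Ighg3 was 1.48 and no longer called (edgeR adjusted p = 0.0641). That scaling moved the median of all genes to -4.84, called 177 genes higher and 12569 lower, and of the 9 genes called 2 higher and 3 lower. It called 4 B cell surface, 2 B cell factor, 0 plasma cell, 0 switching, 1 Fc receptor and 2 plasmacytoid genes higher, and 9 plasma cell, 16 switching and 7 Fc receptor genes lower. Scaled to the CD8 identity genes (median of all genes 1.93), 9353 genes were called higher and 83 lower, with 6 plasma cell and 9 switching genes higher and 0 plasma cell, 0 switching and 0 Fc receptor genes lower. All 7 members kept by the filter were still called higher under that scaling. The cause of the other shifts was not tested. With no filter, 5 B cell factor genes were called higher.

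Leaving out 1 pool at a time, the B cell factor genes called higher ran from 5 to 7, plasma cell genes lower from 1 to 3, switching genes higher from 0 to 1 and Fc receptor genes lower from 0 to 1. Members called ran from 7 to 9. With 2 pools left in a group, the Jchain to Igkc difference had an exact permutation p of 0.2 without any 1 ruxolitinib pool and 0.1 otherwise. No paired analysis was possible because the pool numbers, 1 to 3 and 4 to 6, are not shared between the groups. Depth limits the IgG genes in control pools, which had 12 reads in all.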
